A study of Bos taurus with 56 samples.

Results

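Nguni bulls finished on a feedlot diet of high metabolizable energy (12.0 MJ per kg) were compared with Nguni bulls on a diet of low energy (10.9 MJ per kg) in the Longissimus dorsi after 120 days. The comparison used all 24 Nguni libraries of the table that sets these groups against each other, out of 42 libraries of both breeds in the deposited tables. Library titles join a stem and a suffix, and each of the 8 Nguni stems in that table had 3 libraries. The labels hold 14 further libraries of 9 stems over both breeds, which have no column in the deposited tables. Nguni stems of both diets are among them, so the 8 stems are not all the labelled Nguni. The labels do not say what a stem is. It was read here as 1 bull, and the libraries sharing it were summed. Should stems not be separate bulls, the spread behind the p-values may be technical. By the sample labels, N008, N11, N14, N35 and N37 were on high energy (n = 5) and N1, N33 and N215 on low energy (n = 3). The deposited tables place N1 with the high energy animals and N11 with the low energy animals. The labels were followed, and the tables' grouping was run beside them. All animals were bulls of one breed, the Nguni, a Sanga breed of southern Africa, and the labels give no age, weight or slaughter data. The Bonsmara, a Sanga-related breed fed the same diets (6 animals), served only to show where the Nguni differed.

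The Longissimus dorsi runs along the spine and gives the sirloin and ribeye cuts, which makes it a standard muscle for work on beef. Skeletal muscle takes up glucose and fatty acids for contraction, and cattle fed more energy than they spend lay down fat between and within the muscles. In bulk muscle RNA, contractile, glycolytic and mitochondrial transcripts usually make up most of the counts, and adipocytes, fibroblasts, vessels and blood contribute smaller shares. The deposited tables identify genes by Ensembl ID alone, and 0 of the IDs matched the gene table at hand, so genes are given here by ID with no function. The tissue could not be checked against muscle markers for the same reason, and 25 gene lists (fat synthesis, fatty acid oxidation, fibre types, the calpain system, other cell types and more) could not be tested. In bulk samples a smaller number of cells of one type and less RNA per cell cannot be told apart.

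Depth ran from 8156040 to 21756322 counts per library and from 34832685 to 49599407 per animal. Libraries N008_3 (high energy) and N215_2 (low energy) stood apart. They had 271 and 339 genes at least 8-fold above both other libraries of the same animal, against at most 8 in the other 22 libraries. The 242 genes raised in both had a median log2 fold change between diets of -0.19. Being chosen for high levels in 1 animal of each diet, they could hardly separate the diets, and nothing is read from them. Total counts were 42199700 ± 5849270 on high energy and 40484500 ± 7896990 on low energy (SD, n = 5 and 3), and genes with at least 1 count numbered 15406 ± 444 and 15283 ± 909. Neither measure differed beyond the spread between animals (exact permutation test over 56 assignments, two-sided, p = 0.732 and 0.911, adjusted over 6 measures p = 0.964 each, smallest p possible 0.0179).

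No gene passed the test of high against low energy in the Nguni. Of 12808 genes with enough counts, edgeR called 0 (0%) at an adjusted p under 0.05, and the smallest adjusted p was 0.999992. At an unadjusted p under 0.05 there were 241 genes (1.88%), where 640.4 would be expected with no difference and evenly spread p-values. Of these, 76 were higher on high energy (0.593% of the genes tested) and 165 were lower (1.29%). The p-values leaned to high values, with 59.7% of genes at a p of at least 0.5 and 33 genes at a p under 0.01. DESeq2 tested 17251 genes and called 2 (0.0116%), both lower on high energy, ENSBTAG00000016615 and ENSBTAG00000027962, whose values are given below. Under the tables' grouping of N1 and N11, edgeR called 0 genes. An unadjusted p under 0.05 was then found for 343 (2.68%), also fewer than the 640.4 expected, and the smallest adjusted p was 0.0663.

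**Figure D1:**
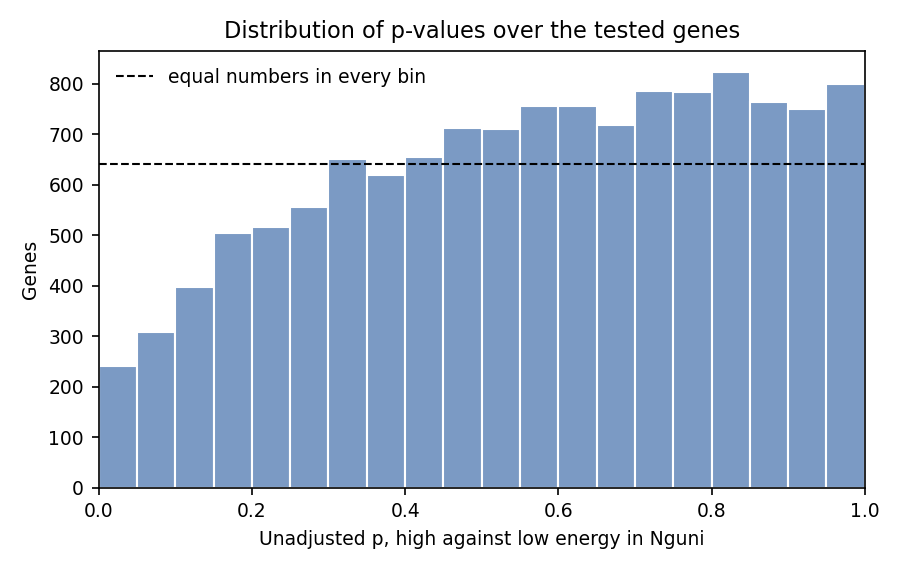
Number of genes (vertical axis) in 20 equal bins of unadjusted p (horizontal axis) for high against low energy in 8 Nguni animals, with a dashed line where all bins hold the same number. The lowest bin holds 241 genes, below the line at 640.4, and the bins fill towards high p.

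The 5 animals on high energy lay all above or all below the 3 on low energy in 238 of the 12808 genes (1.86%). In 103 of these (0.804%) the high energy animals were higher, and in 135 (1.05%) they were lower. With animals assigned to the diets at random, each direction has a probability of 0.0179 (1 of 56 assignments). Both shares were below it, so separation alone is not read as a sign of diet. Among the 238 genes, 177 had a mean of at least 1 CPM (counts scaled to a common library total after TMM), 80 higher and 97 lower on high energy. The separation was mostly narrow. In these 177 genes the nearest animals of the diets differed by a median of 1.06-fold and by at most 1.79-fold, and the median absolute log2 fold change was 0.59. The highest log2 fold change, 5.83 in ENSBTAG00000038430, rested on N14 at 21.2 CPM, while the other high energy animals were at 0.188 to 0.382 CPM and the low energy animals at 0.0466 to 0.105 CPM. The choice of this gene followed from its values. When libraries rather than animals were compared, all 15 high energy libraries lay apart from all 9 low energy libraries in 2 genes (0.0156%), ENSBTAG00000016615 and ENSBTAG00000017592, both lower on high energy.

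The first genes described, 2 higher and 2 lower on high energy, were chosen for diets that did not overlap and a small p. Their separation is therefore no result in itself. ENSBTAG00000016615 had the smallest p of all genes tested. Its level was 3.19 CPM in N008, 2.62 in N11, 2.44 in N14, 2.93 in N35 and 2.31 in N37 on high energy. On low energy it was 6.01 CPM in N1, 5.60 in N215 and 6.08 in N33. The low energy animals sat close together, each at 1.75 times or more the highest of the high energy animals, N008. Group means were 2.70 ± 0.36 CPM (SD, n = 5) and 5.90 ± 0.26 CPM (SD, n = 3). The log2 fold change was -1.13 (SE 0.24, edgeR p = 0.00092, adjusted p = 0.999992). Its 15 high energy libraries ran from 0.802 to 3.995 CPM and its 9 low energy libraries from 4.81 to 8.74 CPM, so none overlapped. DESeq2 called it (adjusted p = 0.0281). Leaving out single animals moved the log2 fold change between -1.20 and -1.10, and it was -1.13 without N008_3 and N215_2. With N1 and N11 exchanged it was -0.50 (edgeR adjusted p = 0.991), since N1 at 6.01 CPM then stood with the high energy animals. In Bonsmara the gene had 2.49 ± 0.72 CPM on high and 2.83 ± 0.98 CPM on low energy (n = 3 each). The diet effects of the breeds differed by -0.95 on the log2 scale (SE 0.40, edgeR interaction p = 0.0309, adjusted p = 0.855), so a difference between breeds did not pass.

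ENSBTAG00000003604 was the second gene that was lower on high energy by the rule for named genes. It had 28.5 CPM in N008, 29.02 in N11, 37.3 in N14, 29.3 in N35 and 33.1 in N37, against 64.3 CPM in N1, 61.3 in N215 and 48.2 in N33. All high energy animals lay below all low energy animals, as the rule required, with N33 nearest to them. Means were 31.4 ± 3.7 and 58.0 ± 8.6 CPM, a log2 fold change of -0.88 (SE 0.20, edgeR p = 0.00108, adjusted p = 0.999992, DESeq2 adjusted p = 0.0924). Among libraries the groups met, because N33_1 at 35.8 CPM lay below N14_3 at 46.2 CPM. In Bonsmara it ran from 21.6 to 94.9 CPM on high and from 35.4 to 71.6 CPM on low energy, a log2 difference of -0.03 (SE 0.42). The interaction was -0.86 (SE 0.57, edgeR adjusted p = 0.855). The tables' grouping of N1 and N11 gave a log2 fold change of -0.26.

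ENSBTAG00000002749 was higher on high energy. It had 2.10 CPM in N008, 7.97 in N11, 6.27 in N14, 7.55 in N35 and 5.59 in N37, against 1.91 CPM in N1, 1.52 in N215 and 0.703 in N33. Only a small gap, between N008 and N1, kept the diets apart, and the other 4 high energy animals were well above it. Means were 5.90 ± 2.33 and 1.38 ± 0.62 CPM, a log2 fold change of 2.08 (SE 0.50, edgeR p = 0.00187, adjusted p = 0.999992, DESeq2 adjusted p = 0.0837). The 3 libraries of N008 were all low for their group, at 2.04 to 2.30 CPM. In Bonsmara the levels were 0.595 to 5.95 CPM on high and 1.44 to 3.25 CPM on low energy, and the interaction was 1.77 (SE 0.89, edgeR adjusted p = 0.855). The log2 fold change fell to 0.47 with N1 and N11 exchanged.

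ENSBTAG00000010543 was the second gene higher on high energy. It had 10.96 CPM in N008, 13.6 in N11, 11.9 in N14, 10.7 in N35 and 11.5 in N37, against 6.17 CPM in N1, 5.98 in N215 and 7.52 in N33. Every high energy animal was at least 1.42 times the highest low energy animal, N33. Means were 11.8 ± 1.2 and 6.56 ± 0.84 CPM, a log2 fold change of 0.84 (SE 0.22, edgeR p = 0.00297, adjusted p = 0.999992, DESeq2 adjusted p = 0.158). In Bonsmara the means were 16.6 ± 10.9 CPM on high and 8.26 ± 2.40 CPM on low energy, and the animals overlapped. The Bonsmara log2 fold change of 1.01 did not pass (SE 0.36, edgeR adjusted p = 0.888). The interaction was -0.17 (SE 0.49, adjusted p = 0.961). With the tables' grouping the Nguni value was 0.18.

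Both ENSBTAG00000017592 and ENSBTAG00000027962 were chosen after their values were seen. ENSBTAG00000017592 had 6.16 CPM in N008, 9.66 in N11, 3.59 in N14, 10.8 in N35 and 9.95 in N37 on high energy, against 16.5 CPM in N1, 15.6 in N215 and 16.9 in N33. The low energy animals lay close together and the high energy animals spread widely below them (log2 fold change -1.02, SE 0.34, edgeR p = 0.0124, adjusted p = 0.999992). DESeq2 did not call it (adjusted p = 0.999909), and the tables' grouping gave a log2 fold change of -0.58. Its libraries ran from 2.73 to 11.96 CPM on high and from 13.2 to 19.5 CPM on low energy. Bonsmara had 6.47 ± 4.54 CPM on high and 7.91 ± 2.44 CPM on low energy, and the interaction was -0.73 (SE 0.65, edgeR adjusted p = 0.859). ENSBTAG00000027962 had 116 counts in N215 and 81 in N33, spread over all 3 libraries of each, but 1 count in N1. On high energy it had 2 counts in N35 and 0 in N008, N11, N14 and N37. The animals with counts were thus 2 of the 3 on low energy, and N1 was no higher than N35 in CPM (0.0233 against 0.0424). It had too few animals with counts to enter the edgeR test, and DESeq2 called it (adjusted p = 0.0113). With no filter on low counts edgeR did test it and did not call it (adjusted p = 0.999764), nor with the filter on mean counts (0.999916) or with 14 animals (0.99991). Its interaction did not pass either (edgeR adjusted p = 0.855). In Bonsmara it reached 0.674 to 2.71 CPM on high and 0.0203 to 4.74 CPM on low energy.

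**Figure D2:**
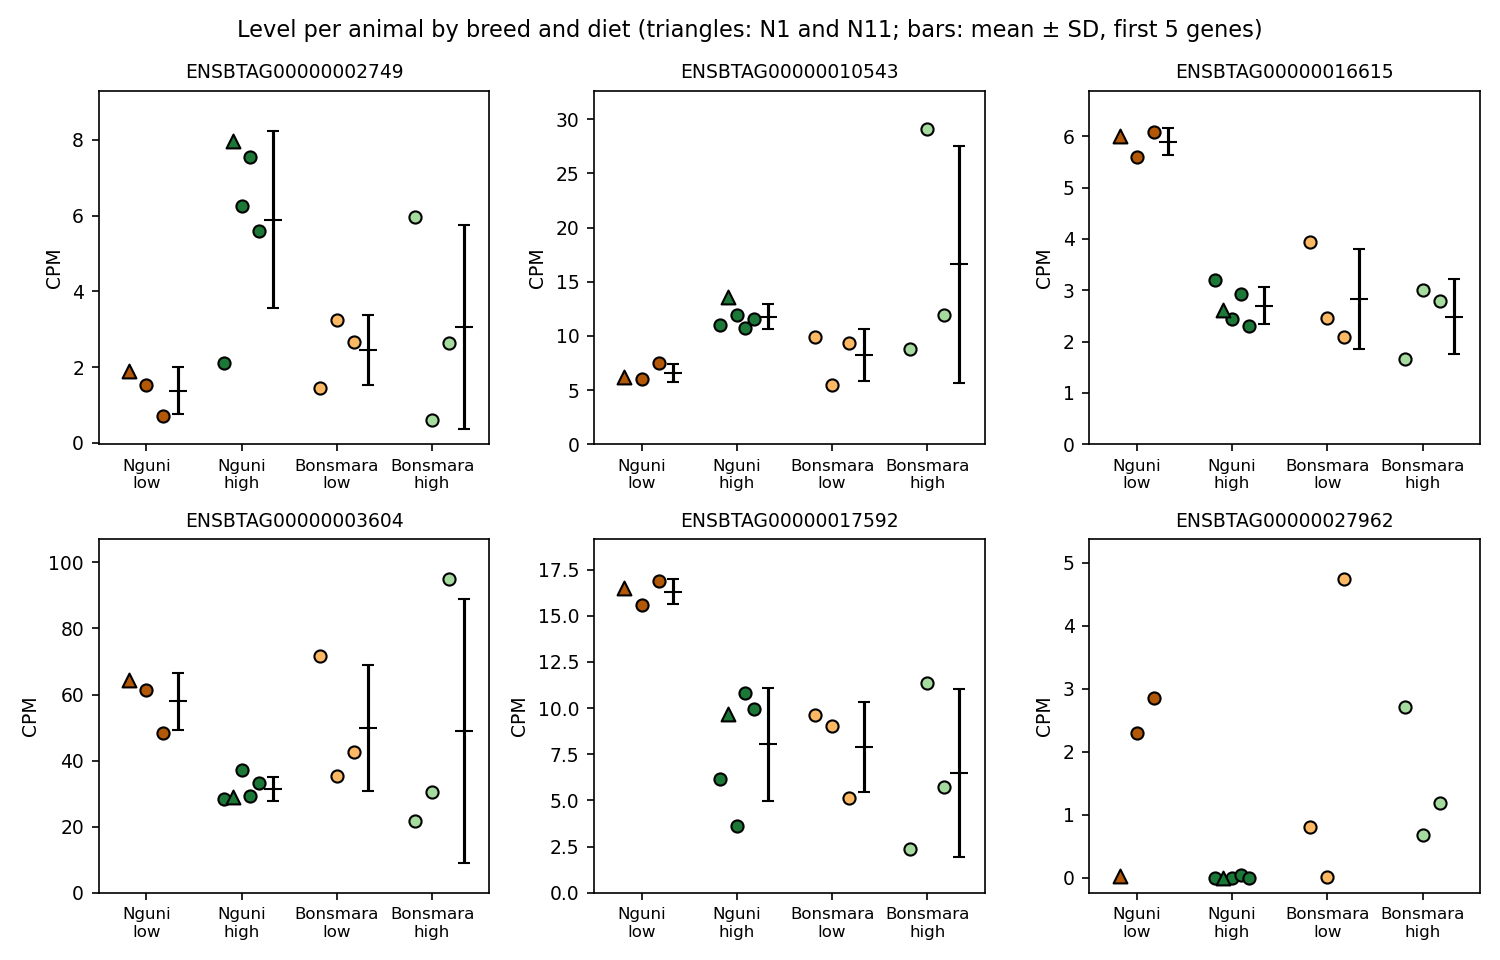
CPM (vertical axes) of 6 genes in each Nguni and Bonsmara animal by diet (horizontal axes), with bars for mean ± SD in the first 5 genes and triangles for N1 and N11, which the labels and the deposited tables place in opposite groups. In the first 5 panels the Nguni diets do not overlap, which was a condition of choosing these genes. In the last panel N1 sits with the high energy animals, and the Bonsmara diets overlap in all 6 panels.

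Under the tables' grouping another gene led. ENSBTAG00000023617 had 4.57 CPM in N11, 2.91 in N215 and 2.25 in N33, the 3 animals those tables put on low energy. The other animals had 0.416 CPM in N008, 0.163 in N1, 0.196 in N14, 0.170 in N35 and 0.161 in N37. So N11 was the highest and N1 among the lowest of the 8. The log2 fold change was -3.85 (SE 0.45, edgeR adjusted p = 0.0663) with the tables' grouping and -0.70 (p = 0.584) with the labels. It was picked for these values. The genes described above were chosen on the labels' grouping and this one on the tables' grouping, so each set favours the grouping it came from, and neither shows which one is right.

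How large a difference each gene could hide depended on its level. The 95% interval of the fold change excluded a 2-fold difference in either direction in 5492 genes (42.9%) and a 4-fold difference in 11306 genes (88.3%). For genes at 100 to 1000 CPM, 76.0% of 620 excluded 2-fold, with a median SE of 0.28 on the log2 scale. At 10 to 100 CPM it was 69.1% of 4224 genes, and at 1 to 10 CPM 36.8% of 5490. Under 1 CPM it was 1.59% of 2389 genes, where the median SE was 0.60. Genes of 1000 CPM and over were less tightly bounded than the classes just below them, with 48.2% of 85 excluding 2-fold. All 85 excluded 4-fold, and these genes held 68.5% of the counts. Differences of at least 2-fold in the fitted value were found in 363 genes, 138 higher and 225 lower on high energy, and 201 of the 363 had a mean under 1 CPM. The median coefficient of variation between animals was 0.32 on high and 0.34 on low energy over all genes. The number of genes excluding 2-fold was 6341 (50.9% of genes tested) without the libraries N008_3 and N215_2. It was 5076 (39.6%) with the tables' grouping and 3513 (26.3%) without N1.

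**Figure D3:**
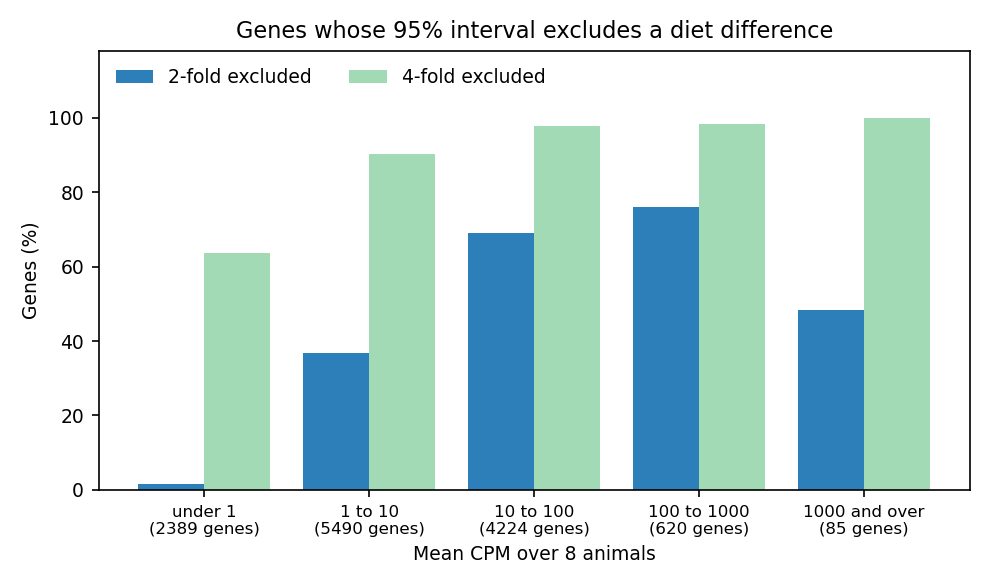
Percentage of genes (vertical axis) whose 95% interval for high over low energy excludes a 2-fold (dark bars) or a 4-fold difference (light bars), in 5 classes of mean CPM over 8 Nguni animals (horizontal axis, with the number of genes). The 2-fold bars rise from 1.59% under 1 CPM to 76.0% at 100 to 1000 CPM and drop to 48.2% at 1000 CPM and over.

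The most abundant transcripts did not separate the diets. The 10 genes of highest mean level took 32.4 ± 3.8% of the counts of an animal on high energy and 32.5 ± 3.6% on low energy (exact permutation test, two-sided, p = 0.964). Their log2 fold changes ran from -0.30 to 0.23, with 7 higher and 3 lower on high energy, the smallest unadjusted edgeR p was 0.446, and 0 of the 10 had diets that did not overlap. The intervals of 5 of them excluded a 2-fold difference and those of all 10 excluded 4-fold. ENSBTAG00000043561, the most abundant, took 7.67% of the counts in N008, 13.6% in N11, 8.10% in N14, 6.10% in N35 and 9.44% in N37. On low energy it took 8.16% in N1, 13.6% in N215 and 10.03% in N33. Libraries of one animal spanned a wider range than the animals did, from 33155 CPM in N33_3 to 233338 CPM in N33_2. Its log2 fold change, -0.25 with an SE of 0.39 (edgeR adjusted p = 0.999992), was -0.57 without N11 and -0.97 with the tables' grouping. The number of genes that held 50% of an animal's counts was 16 to 27 on high and 17 to 28 on low energy.

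Differences between animals of one diet were larger than those between diets. Of the summed squares of log2 CPM over 12808 genes, 52.1% lay between animals within diets, 42.8% between libraries of one animal and 5.09% between diets. Per degree of freedom, the mean square was 0.77 for animals within diets, 0.24 for libraries and 0.45 for diet. The share of diet was 6.93% with the tables' grouping and 6.66% without N008_3 and N215_2. N33, on low energy, was the extreme animal of the 8 most often, highest in 20.7% and lowest in 23.98% of genes, where equal shares would be 12.5%. N35 was highest in 17.3% and lowest in 16.4%, and N008 was highest in 16.6%. The remaining animals were each highest in 7.17% to 11.9% of genes. On the first principal component, which held 47.7% of the variance, N008 at 63.5 and N215 at 56.4 stood at one end and N33 at -51.5 at the other. The next highest animal was N35 at 11.7. N008 and N215 are the animals of the libraries N008_3 and N215_2 that stood apart, and the component was not computed without these libraries. With them, animals of both diets lay far apart within their own group (exact permutation test of diet, two-sided, p = 0.929). The spread among an animal's 3 libraries, as a coefficient of variation fitted over genes, was lowest in N35 (0.16) and N14 (0.23). It was highest in N215 (0.49), N008 (0.47) and N33 (0.44), and the values of N215 and N008 include N215_2 and N008_3.

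Presence and absence also divided few genes by diet. Of 20791 genes listed, 13172 had counts in all 8 animals and 3085 had none in any Nguni library. Only 11 genes had counts in every animal of one diet and none in any of the other, and the highest of their levels in any animal was 0.323 CPM, here without TMM scaling. Of the 17706 genes with any count, 842 had counts in at least 1 high energy animal and in no low energy animal. The opposite held for 391 genes. There were 5 animals to find them in on high energy and 3 on low. No expected number was computed, so nothing is read from the difference.

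The low number of genes at a small p held in most, not all, fits. With quality weights, limma voom gave 753 (5.88% of genes tested, 237 higher and 516 lower on high energy, 0 called), and edgeR gave 400 with all 14 animals of both breeds in one fit (3.03%). Without N008 the number was 588 (4.72%), of which 498 were lower on high energy, without N215 449 (3.47%), and without N14 151 (1.20%). Leaving out both disputed animals, N1 and N11, was an alternative added after the data were seen. It gave 201 genes at an unadjusted p under 0.05 (1.51%), and edgeR called 0. Without N33 edgeR called 0 with a smallest adjusted p of 0.0593, and limma voom on single libraries, blocked by animal, called 0 with a smallest adjusted p of 0.0832.

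**Figure D4:**
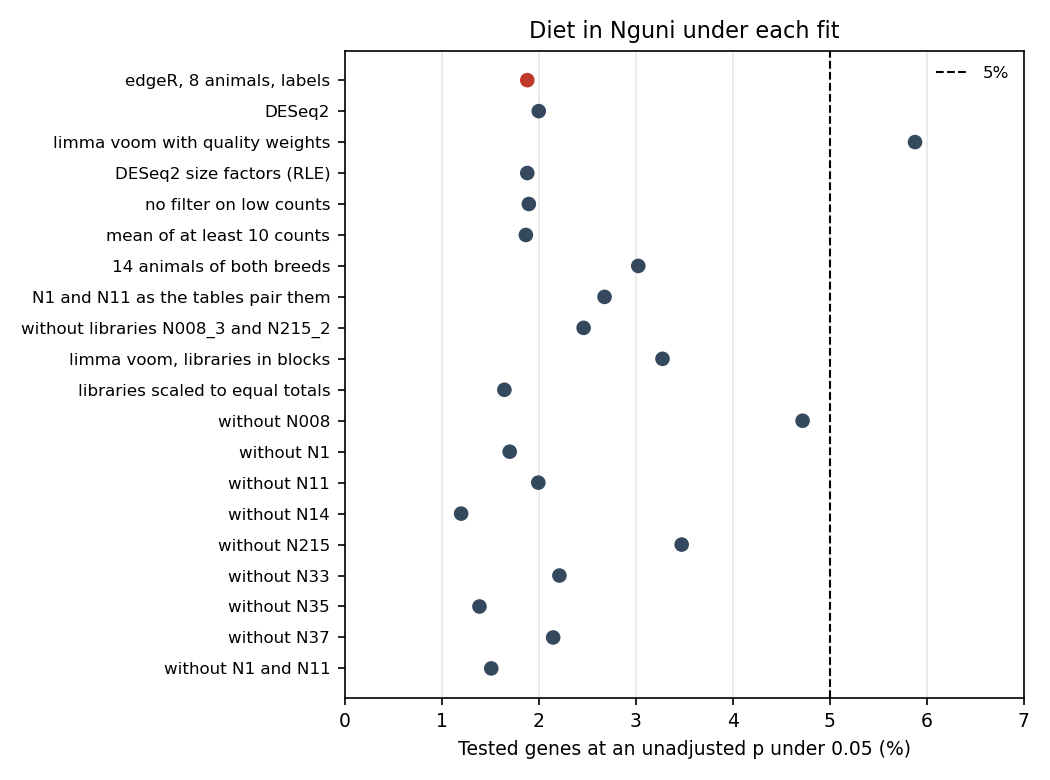
Percentage of tested genes at an unadjusted p under 0.05 for diet in the Nguni (horizontal axis) in each fit (rows), with the edgeR fit of 8 animals by the labels in red and a dashed line at 5%. The red point is at 1.88%, limma voom with quality weights lies highest at 5.88%, and leaving out N008 gives 4.72%.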

How the data were processed

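The deposited values are gene-level estimated counts per library, unscaled. They are read as estimated counts because the submitters' processing notes name Salmon, beside Trimmomatic, FastQC and DESeq2, with no version or role. Genome build, annotation release and strand: not given in the sources used here. Per the labels' protocols, libraries came from a TruSeq kit after Trizol extraction of snap-frozen muscle. All values were whole numbers, so rounding changed 0 of them. Each of the 24 Nguni columns was identical in a second table and was used once. Of 56 labelled samples, 14 are not analysed here.

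The 3 libraries of an animal were summed. Genes were filtered with filterByExpr (minimum count 10), which left 12808 of 20791 genes and 99.95% of counts, and scaled by TMM. A robust quasi-likelihood fit in edgeR 4.0.16 (R 4.3.3) on the 8 Nguni animals had 6 residual degrees of freedom. Two-sided p-values were adjusted over all genes tested (Benjamini-Hochberg, 0.05). SE and 95% intervals of log2 fold changes come from the F statistic. The interaction came from the same model with 14 animals. Library CPM used TMM factors of the libraries. For variances and components, log2 CPM had 0.5 added. The script was tested on simulated data. Alternatives used DESeq2 1.42.0, limma 3.58.1, other scalings and filters, the tables' grouping and left-out animals or libraries.

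Genes named were the 2 higher and 2 lower with the smallest p among those with a mean of at least 1 CPM and diets that did not overlap, and the most abundant gene. Others were chosen after their values were seen, as stated. The comparison and lists were chosen with earlier results of these data known. Intervals cover the spread between these animals only.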

Additional observations from a re-analysis of the deposited data

Results flagged for a closer look

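In 2 of the 13 measures tested, all on the same 5 high energy animals, 1 animal lay further from the others than Dixon's gap test allows at the 95% level. Chance alone does this in about 1 in 20 measures, a rate that holds only for normally spread values without ties. The 13 measures overlap and are not independent. The most abundant gene, ENSBTAG00000043561, was at 165530 CPM in N11, where the next highest animal was at 88458 CPM. Its share of the counts, 13.6% in N11 and 9.44% in N37, was also tested and was not flagged. N11 is an animal that the labels and the deposited tables place in opposite groups. ENSBTAG00000027962 was at 0.0424 CPM in N35, from 2 counts, and at 0 in the other 4 high energy animals. With those 4 tied at 0, any count in N35 would have been flagged, so nothing is read from this flag.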

How the results depend on the processing

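No paired analysis was possible because no label pairs animals across diets. The suffixes of the titles were read as numbering the libraries of a stem, which the labels do not state. Over 19 alternatives the number of genes called was 0, except in DESeq2 (2). The number at an unadjusted p under 0.05, 241 as reported (1.88%), was 753 in limma voom with quality weights (5.88%) and 400 with 14 animals (3.03%). With single animals left out it was 151 to 588 (1.20% to 4.72%). Diets did not overlap in 238 of 12808 genes. With single animals left out this ran from 291 of 12587 genes (without N14) to 1002 of 13377 (without N33). Without N1 and N11 it was 956 of 13308. Fewer animals then have to be apart by construction, so nothing is read from the rise. The number excluding a 2-fold difference was 5492 (42.9% of genes tested). With single animals left out it was 3513 (26.3%, without N1) to 5439 (43.2%, without N35). It was 2698 (20.3%) without N1 and N11. In these fits the interval rests on fewer animals, and the number of genes tested differs. The log2 fold change of ENSBTAG00000043561 reversed to 0.0707 in limma voom with quality weights, and the cause was not tested. ENSBTAG00000002749, ENSBTAG00000010543, ENSBTAG00000016615, ENSBTAG00000003604 and ENSBTAG00000017592 kept their direction in all 19. These 5 were chosen among genes whose diets did not overlap, so leaving out animals could hardly reverse them. Nothing is read from their constancy. Apart from these 5 and ENSBTAG00000043561, no gene was followed over the 19 alternatives. The difference in detected genes, 122.6 more on high energy, ran from -356.9 to 547.1 with single animals left out, with a reversal without N008 and without N33. The difference in total counts ran from -676165 to 6272750, reversing without N008, N1 or N33. With 3 animals on low energy, 42.9% of all genes tested were bounded at 2-fold. The share was 1.59% under 1 CPM, 36.8% at 1 to 10 CPM and 48.2% at 1000 CPM and over. Absence of calls is therefore not evidence that the diets gave equal levels.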

Other observations

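Some genes were high in some Nguni animals and at or near 0 in others without following the labels. ENSBTAG00000021565 had 0 counts in N1 and N215 on low energy and 15.3 CPM in N33 on the same diet, against 6.12 to 14.8 CPM in the 5 high energy animals. It had the smallest p in quality-weighted limma voom (adjusted p = 0.396) and without N33 in edgeR (adjusted p = 0.0593), and an unadjusted edgeR p of 0.513 with all 8 animals. ENSBTAG00000006383 had 54.2 CPM in N1, 61.0 in N33 and 40.5 in N11, and 0.0538 to 0.255 CPM in the other 5 animals, of both diets. Both genes were chosen after their values were seen.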
